A study of Caenorhabditis elegans with 8 samples.

Results

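The clec genes of Caenorhabditis elegans encode proteins with C-type lectin-like domains, and were taken here as every gene of the deposited expression table whose name is clec followed by a number. This gave 110 clec genes among the 14541 named genes of the table, or 0.756%. The annotation used for positions (WBcel235, Ensembl release 115) names 240 clec genes, and the 136 that are not in the table under such a name were not analysed here. Of the 110, all but 6 carry the same name in that annotation, and those 6 (clec-44, clec-69, clec-152, clec-154, clec-155 and clec-236) carry no clec name there. In turn, 1 gene of the table that release 115 names clec-209 is listed in the table as F56A4.2 and was not counted.

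The libraries came from whole animals of pals-17(*) mutants (strain ERT994, 4 replicates) and of the wild-type strain N2 (4 replicates). The mutants carry pals-17(syb3980), point mutations that put consecutive stop codons into the coding sequence of pals-17, a gene that restrains the intracellular pathogen response (IPR), a set of genes switched on by microsporidia and virus infection of the intestine. All animals started as synchronized L1 larvae on OP-50 bacteria at 20 °C, and mutants were collected after 72 h and wild-type animals after 48 h because the mutants grow slowly. Both collections aimed at the L4 larval stage, but by the study's account the mutant populations were uneven and held animals past and before that stage. Genotype, hours of growth and mix of stages therefore cannot be told apart in any comparison below. Since RNA came from whole animals, fewer cells of a type and less RNA per cell cannot be told apart either. The labels number the replicates but say nothing of separate cultures, so p-values measure the spread between these libraries, which may in part be technical.

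C-type lectin-like domains are folds that in many animal proteins bind sugars, and the nematode family is far larger than its vertebrate counterpart. Many of the worm proteins are predicted to be secreted, many of the genes are expressed in the intestine, and sets of them change expression when worms eat pathogenic bacteria, with different sets for different bacteria. Some have been shown to act in defence or to bind bacteria, some act as regulators, and other members are expressed in the germline or in neurons, so the family is not a single pathway.

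The table held a log2 value per gene and library from which whole read counts could be recovered, and levels are given below in CPM, the reads per 1000000 of the authors' scaled library size. Reads on the listed genes numbered 18629170 to 21891721 in pals-17(*) libraries and 17871320 to 23378799 in wild-type libraries, and 1 read was worth 0.0362 to 0.0446 CPM in mutant libraries and 0.0522 to 0.0681 CPM in wild-type libraries. The scaled size was 1.2 to 1.26 times the read total in mutants and 0.793 to 0.822 times in wild type, so the choice of scaling moves every gene. Against the deposited scaling, the median log2 fold change of all genes was shifted to 0.60 by scaling to library totals, to -0.27 by centring each library on its median and to -0.12 by quantile normalization. pals-17 itself stood at 4.6, 4.45, 4.07 and 4.36 CPM in mutants and at 15, 14.3, 15.5 and 19.3 CPM in wild type, a log2 fold change of -1.86 (SE 0.114; limma adjusted p = 1.72e-07). Genes that mark tissues and stages differed between strains as well. Oocyte and embryo markers summed to 3739 to 5013 CPM in mutants and 45.4 to 185 CPM in wild type, with 14 of 14 higher in mutants. Sperm markers summed to 905 to 1029 CPM and 39.2 to 110 CPM, again with 14 of 14 higher in mutants. Adult cuticle collagens summed to 2545 to 2841 CPM in mutants and 16 to 143 CPM in wild type, with 3 of 3 higher in mutants. A list of other cuticle and molting genes summed to 1117 to 1394 CPM in mutants and 6762 to 8252 CPM in wild type. Of these 9 of 10 were lower in mutants, and dpy-17 did not pass (log2 fold change 0.53). The 13 intestinal markers in the table were all lower in mutants, summing to 5827 to 7015 CPM against 24640 to 27530 CPM in wild type. Vitellogenins, which the adult intestine makes, went the other way, with 5 of 6 higher in mutants and 1 not passing. They summed to 6383 to 9110 CPM in mutants and 1691 to 3394 CPM in wild type. The part of these differences in the clec results was not tested.

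Comparing pals-17(*) mutants with wild-type animals, clec genes differed in both directions, many by more than 4-fold and others by little. By limma with an adjusted p under 0.05 and a log2 fold change above 2, 35 members (31.8%) were upregulated in mutants, where 20.6% of all 14541 genes were. By the same rule with a log2 fold change below -2, 27 members (24.5%) were downregulated, where 7.48% of all genes were. Without the limit on fold, 49 members (44.5%) were higher, against 42.5% of all genes, and 52 (47.3%) were lower, against 41.2%, which are shares near those of the whole table. None of these shares was compared by a test. In 47 members (42.7%) every mutant library lay above every wild-type library, as it did in 41.2% of all genes, and in 50 members (45.5%) every mutant library lay below, as it did in 39% of all genes. The median log2 fold change was -0.26 over the family and 0.0041 over all genes. The median size of the change regardless of sign was 2.17 on the log2 scale in the family and 0.98 in all genes, and the SD was 3.46 and 2.06. Scaling by library totals turned the family median to 0.34, a shift that this scaling gives to every gene alike.

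**Figure D1:**
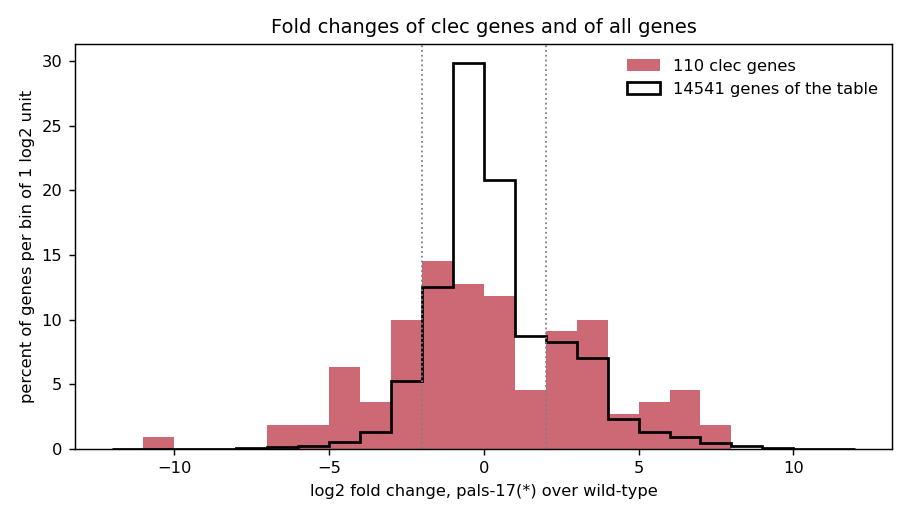
Histogram of the log2 fold change, pals-17(*) over wild-type, for the 110 clec genes (filled) and for all 14541 genes of the table (black outline); the vertical axis is the percent of genes in each bin of 1 log2 unit, and dotted lines mark -2 and 2. All genes pile up near 0, while the clec genes spread to both sides, with 62 of 110 (56.4%) past a dotted line and an adjusted p under 0.05 against 28.1% of all genes.

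Part of this spread came from members that were close to silent in either strain. Each of the 110 reached a mean of 1 CPM in at least 1 strain, which the authors' filter on low values favours, and a gene that entered only through the strain where it was high had to differ. Among clec genes 27 (24.5%) reached 1 CPM in mutants only and 14 (12.7%) in wild type only, while 12.3% and 2.82% of all genes did. The other 69 members reached 1 CPM in both strains, and 13 of them (18.8%) were upregulated and 14 (20.3%) downregulated, where 12.4% and 6.9% of the 12310 such genes of the table were.

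Levels of the called members are given next as a description, since the direction of a change and the level in either strain are not independent. The 35 upregulated members had a median of 7.25 CPM in mutants and 0.575 CPM in wild type, and 22 of them averaged under 1 CPM in wild type, where all 2995 upregulated genes of the table had medians of 10.2 and 1.04 CPM and 1464 under 1 CPM in wild type. The 27 downregulated members had a median of 2.15 CPM in mutants and 19.5 CPM in wild type, and 13 of them averaged under 1 CPM in mutants, where all 1087 downregulated genes had medians of 6.76 and 46.4 CPM and 237 under 1 CPM in mutants. clec RNA as a whole was lower in mutants. All members together summed to 4307, 3925, 3997 and 4090 CPM in the 4 mutant libraries and to 7365, 7833, 8586 and 7936 CPM in the 4 wild-type libraries. The strains did not overlap in this sum under any of the 4 scalings, and came closest with quantile normalization, at 4805 to 5153 CPM in mutants and 5980 to 6786 CPM in wild type. Mutant libraries held 6 to 8 members above 100 CPM and wild-type libraries 15 or 16.

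**Figure D2:**
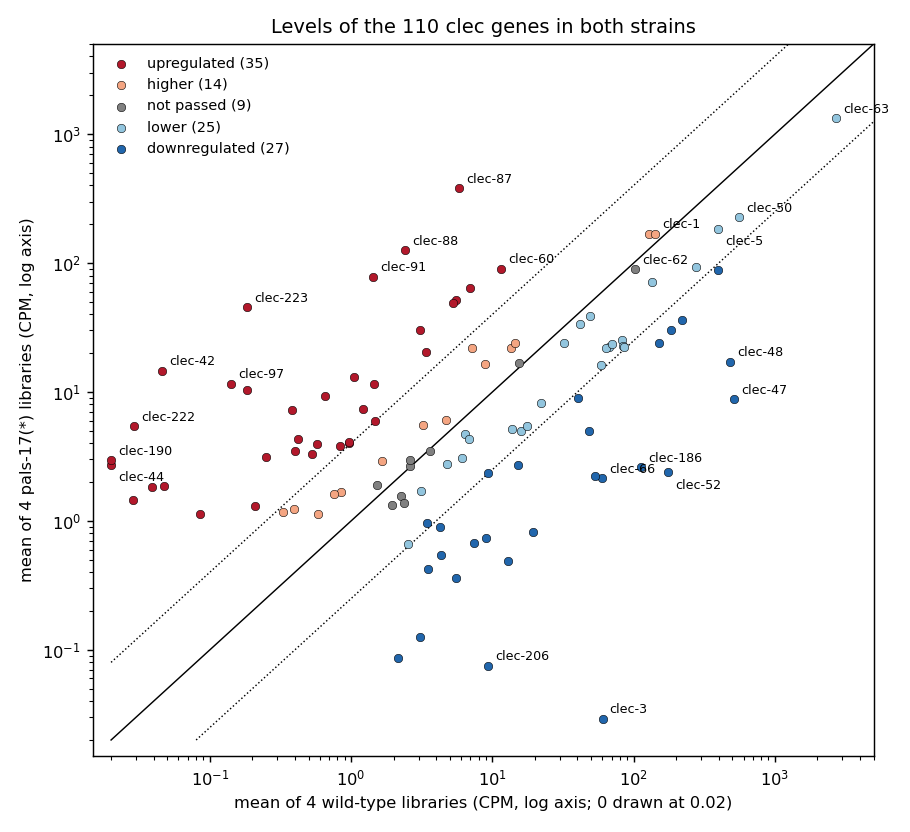
Mean CPM of each of the 110 clec genes over the 4 pals-17(*) libraries (vertical, log axis) against the mean over the 4 wild-type libraries (horizontal, log axis; a mean of 0 is drawn at 0.02), coloured by limma call; the solid line marks equal levels and the dotted lines a 4-fold difference. The 35 upregulated genes lie mostly at the left, under 1 CPM in wild type, and the 27 downregulated genes at the lower right, with clec-63 the most abundant in both strains.

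A single gene, clec-63, held about the same large share of clec RNA in either strain. It made up 31.1 to 35.7% of the family sum in mutant libraries and 31.6 to 35.9% in wild-type libraries. Its level was 1539, 1227, 1244 and 1311 CPM in mutants and 2453, 2816, 3068 and 2509 CPM in wild type, with no overlap. The log2 fold change was -1.03 (SE 0.0998; limma adjusted p = 4.78e-06), but -0.14 with an adjusted p of 0.19 after quantile normalization. Per kilobase of exon, which allows genes to be compared, clec-63 led at 1026 CPM in mutants and 2091 CPM in wild type. Below it the order differed between strains. In mutants the next levels per kilobase were 398 CPM for clec-87, 220 CPM for clec-1, 217 CPM for clec-50, 135 CPM for clec-5 and 128 CPM for clec-10. In wild type they were 980 CPM for clec-47, 533 CPM for clec-50, 471 CPM for clec-48, 431 CPM for clec-83 and 290 CPM for clec-5. The gene that ranked second per kilobase in wild type, clec-47, ranked 26th in mutants, and clec-87, second in mutants, ranked 48th in wild type.

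Among the other abundant members, clec-50 and clec-5 were lower in mutants, and clec-10 and clec-1 were slightly higher with the deposited scaling. clec-50 measured 257, 217, 204 and 231 CPM in mutants and 478, 523, 616 and 621 CPM in wild type, a log2 fold change of -1.29 (SE 0.103; limma adjusted p = 1.06e-06). clec-5 averaged 184 ± 18.6 CPM in mutants and 395 ± 16 CPM in wild type (SD, n = 4 each), a log2 fold change of -1.11. Both were lower in mutants under each of the 3 other scalings, at -1.57 to -0.45 for clec-50 and -1.39 to -0.33 for clec-5. clec-10 was higher in mutants, at 168 ± 17.8 CPM in mutants and 128 ± 12.2 CPM in wild type, but its log2 fold change of 0.39 (limma adjusted p = 0.00271) was 0.12 with an adjusted p of 0.294 after median centring. clec-1 overlapped between strains, at 144, 174, 179 and 179 CPM in mutants and 144, 121, 138 and 161 CPM in wild type. Its log2 fold change of 0.27 (limma adjusted p = 0.0304) did not pass without any of mutant replicates 2, 3 and 4 or wild-type replicates 2 and 3 (0.20 to 0.26, adjusted p 0.0655 to 0.0859), and was -0.011 after median centring.

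The strongest decreases included members that were abundant in wild type and near silent in mutants. clec-3 had 3 reads over all mutant libraries, at 0.0446, 0.0724, 0 and 0 CPM, and 3895 reads in wild type, at 46.9, 55.8, 63.2 and 75 CPM. That ratio was 2049-fold higher in wild type, with a 95% counting interval of 701 to 9940 that covers counting error only. Its neighbour clec-2 on chromosome II (clec-3 at 3017468 to 3019907 and clec-2 at 3020562 to 3023431, both on the minus strand) was also lower, with a mean of 0.0872 CPM in mutants and 2.15 CPM in wild type. The mutant level of clec-2 rested on 9 reads, at 0.0446, 0, 0.0746 and 0.23 CPM (log2 fold change -4.89, SE 0.672). clec-47 stood at 9.90, 10.5, 7.65 and 7.0 CPM in mutants and at 458, 477, 538 and 566 CPM in wild type. Its log2 fold change was -5.87 (SE 0.135; limma adjusted p = 6.24e-10), a 58.6-fold lower level. clec-48, also among the most abundant members in wild type, fell to 23.6, 16.9, 13.5 and 14.5 CPM in mutants, against 409, 474, 518 and 508 CPM in wild type, a log2 fold change of -4.83 (SE 0.161; limma adjusted p = 3.96e-09). The largest decreases were taken only from members whose libraries did not overlap, so the strains had to be apart in each of these.

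The rest of the 10 largest decreases were clec-206 (log2 fold change -6.82), clec-52 (-6.27), clec-186 (-5.44), clec-66 (-4.78), clec-258 (-4.62) and clec-53 (-4.59). clec-52 was at 1.2, 2.06, 3.28 and 2.98 CPM in mutants and averaged 175 ± 25.2 CPM in wild type (SD, n = 4). clec-186 was at 2.90, 3.00, 2.27 and 2.3 CPM in mutants, against 106, 112, 118 and 118 CPM in wild type. clec-206 was at 0.0446, 0.181, 0.0373 and 0.0383 CPM in mutants (8 reads in all), the second library standing above the others. In wild type clec-206 was at 10.8, 6.58, 9.89 and 9.74 CPM. Each of the 27 downregulated members kept its direction and an adjusted p under 0.05 in all 3 other scalings and without any single library.

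**Figure D3:**
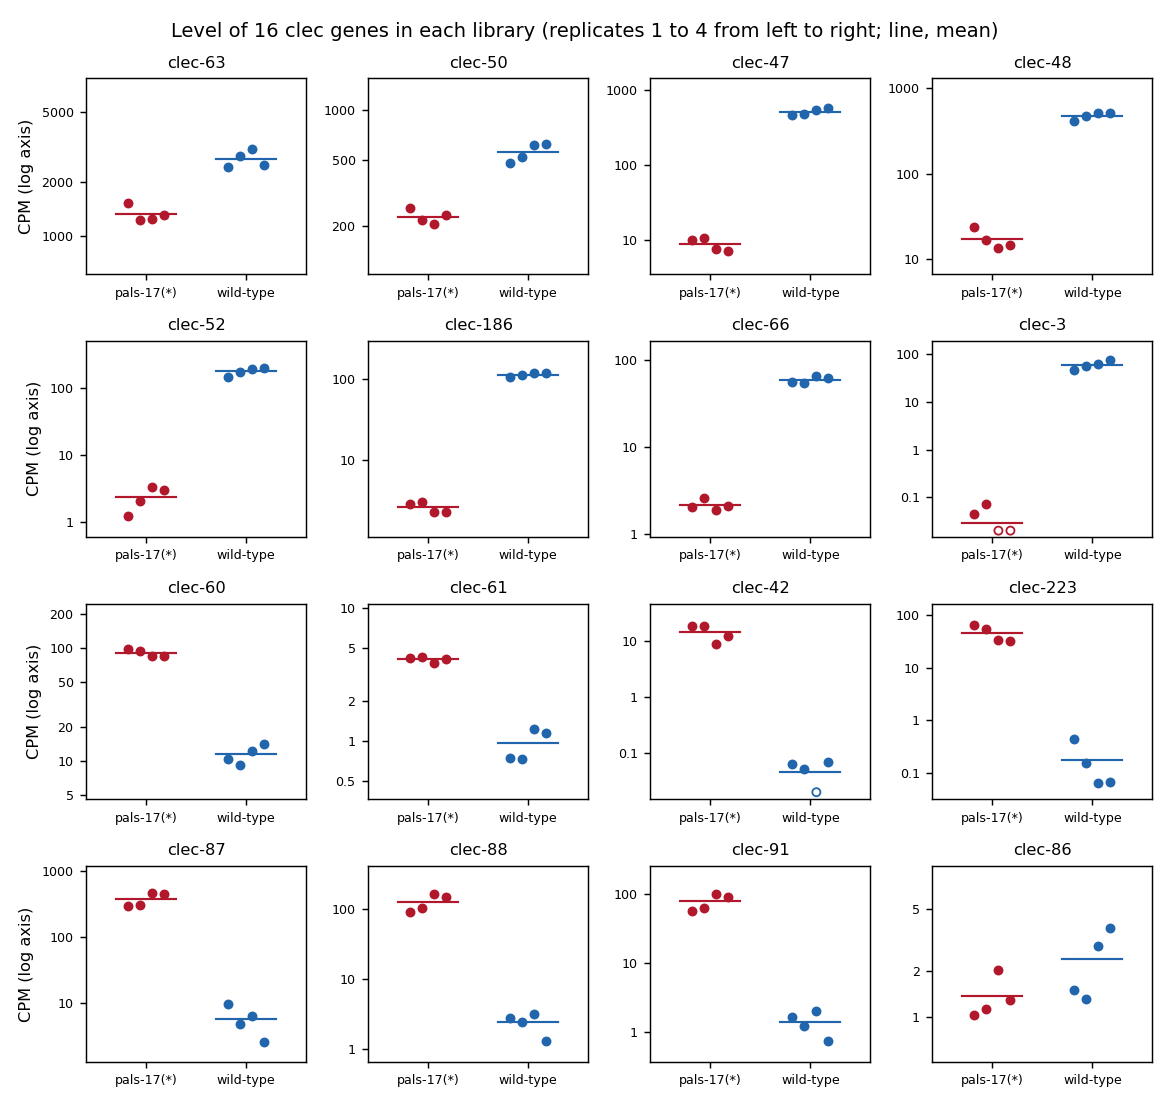
Level in CPM (log axis, a separate range in each panel) of 16 clec genes in the 4 pals-17(*) libraries (red, left) and the 4 wild-type libraries (blue, right), replicates 1 to 4 from left to right; the line is the mean of the 4 libraries and open circles are libraries with 0 reads, drawn at 0.02. The upper 8 genes are lower in every mutant library and the next 7 are higher in every mutant library, while clec-86 at the lower right overlaps between strains.

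Next, the clec genes that have been connected with responses to bacteria were considered, as a list of 25 of which 23 were in the table. Among these 23, 14 were lower in mutants (7 of them downregulated), 6 were higher (3 upregulated) and 3 did not pass the test, with a median log2 fold change of -0.89. Over all genes 41.2% were lower, 7.48% downregulated, 42.5% higher and 20.6% upregulated, and the median was 0.0041. The summed level of the list was 1970 to 2444 CPM in mutants and 4317 to 5337 CPM in wild type. The counts moved with the scaling, to 9 higher and 11 lower with library totals, 5 higher and 16 lower with median centring and 5 higher and 12 lower with quantile normalization.

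Genes known from infections with different bacteria did not all move the same way. clec-60, which is induced by Staphylococcus aureus in the intestine, was higher in mutants at 98.9, 93.6, 85.2 and 85 CPM, against 10.4, 9.14, 12.2 and 14.1 CPM in wild type (log2 fold change 3.00, SE 0.128; limma adjusted p = 1.67e-08). Its neighbour clec-61 was higher as well, at 4.13 ± 0.182 CPM in mutants and 0.967 ± 0.262 CPM in wild type (SD, n = 4 each; log2 fold change 2.09). clec-70 and clec-71, also responsive to Staphylococcus aureus, went in opposite directions at log2 fold changes of 0.73 (limma adjusted p = 0.0019) and -0.89 (limma adjusted p = 0.00364). The fall of clec-71 did not pass with library totals (-0.30, adjusted p = 0.233).

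clec-85, a target of the p38 MAP kinase PMK-1 in the response to Pseudomonas aeruginosa, was at 5.49, 5.39, 4.77 and 4.32 CPM in mutants and at 38.7, 46.1, 58.4 and 50.1 CPM in wild type (log2 fold change -3.26, SE 0.134; limma adjusted p = 1.37e-08). Its exons share 397 bases with Y54G2A.40 on the same strand, so reads there cannot be assigned to either gene. clec-67, another PMK-1 target, overlapped between strains at 41.6, 33.1, 28.9 and 31 CPM in mutants and 42.6, 44, 41.7 and 38.4 CPM in wild type. Its log2 fold change of -0.32 (limma adjusted p = 0.0193) did not pass without mutant replicate 3 (-0.25, adjusted p = 0.0546), mutant replicate 4 (-0.29, adjusted p = 0.0527) or wild-type replicate 2 (-0.29, adjusted p = 0.051), and was 0.28 with library totals.

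Of the genes studied in the response to Bacillus thuringiensis, clec-42 was higher, clec-4 was lower and clec-41 overlapped between strains. clec-42 was at 18.3, 18.8, 8.73 and 12.6 CPM in mutants, the first 2 libraries being the highest, and at 0.0627, 0.0522, 0 and 0.0681 CPM in wild type. These are 1492 and 3 reads, a ratio of 315-fold with a 95% counting interval of 108 to 1530. clec-4 averaged 0.731 ± 0.284 CPM in mutants and 9.04 ± 2.24 CPM in wild type (SD, n = 4 each), a log2 fold change of -3.64 (SE 0.304; limma adjusted p = 1.57e-06). clec-41 was at 45.4, 47, 31.2 and 31.4 CPM in mutants and 44.9, 46, 58.5 and 48.4 CPM in wild type. Its log2 fold change of -0.37 (limma adjusted p = 0.0454) did not pass without any of mutant replicates 3 and 4 or wild-type replicates 2, 3 and 4 (-0.40 to -0.28, adjusted p 0.0585 to 0.128), and was 0.23 with library totals. clec-49, which binds Serratia marcescens and acts in defence against it, was lower at 22.3 ± 4.07 CPM in mutants and 85.2 ± 8.28 CPM in wild type (log2 fold change -1.94, SE 0.122; limma adjusted p = 2.1e-07).

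Beyond these, the listed genes clec-17, clec-47, clec-52, clec-66 and clec-84 were downregulated, with log2 fold changes of -4.48, -5.87, -6.27, -4.78 and -2.63. clec-50, clec-63 and clec-65 were lower by less (-1.29, -1.03 and -1.71). clec-7 and clec-10 were higher, at 1.15 and 0.39, although clec-7 was -0.20 after quantile normalization. clec-62, clec-82 and clec-86 did not pass the test. clec-39 and clec-45, and the neuronal gene clec-38, are not in the table and were not analysed here.

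**Figure D4:**
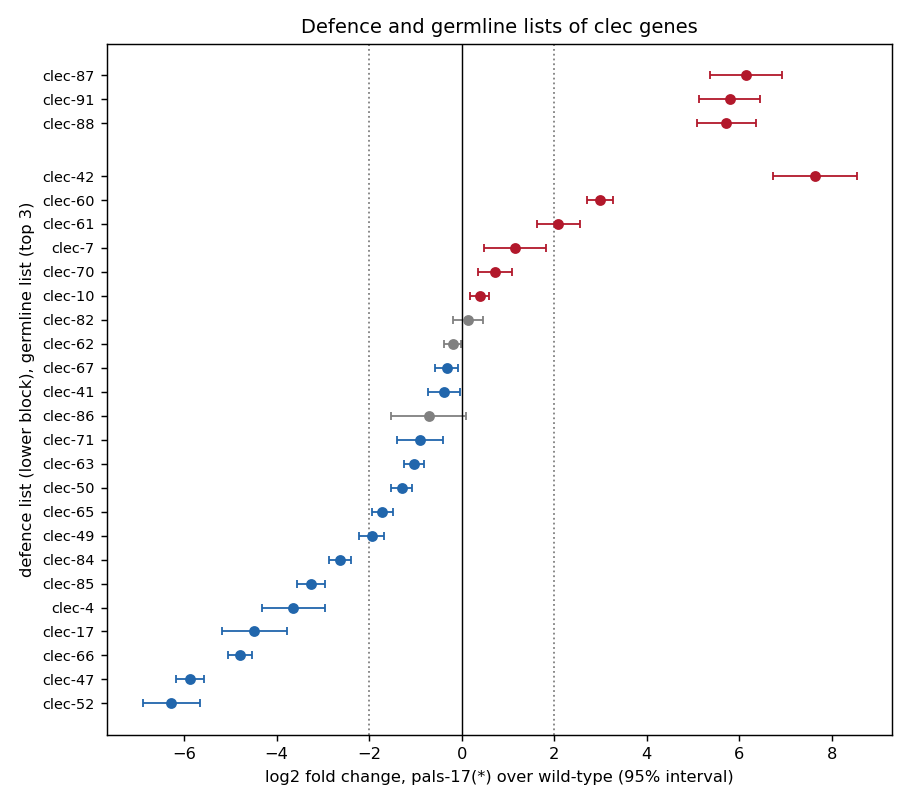
log2 fold change, pals-17(*) over wild-type, with 95% interval for the 3 listed germline clec genes (top block) and the 23 listed defence clec genes in the table (lower block), in order of the change; red marks genes higher in mutants, blue genes lower and grey genes that did not pass an adjusted p of 0.05, and dotted lines mark -2 and 2. The germline genes lie between 5.72 and 6.15, and the defence genes spread to both sides of 0, the lowest being clec-52 at -6.27.

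Several of the largest increases were of genes with next to no reads in wild-type animals. The 10 largest, among genes whose libraries did not overlap, were clec-223, clec-42, clec-222, clec-97, clec-44, clec-190, clec-87, clec-91, clec-88 and clec-147. clec-223 stood at 64.9, 53.5, 32.7 and 31.3 CPM in mutants and at 0.439, 0.157, 0.0646 and 0.0681 CPM in wild type, a log2 fold change of 7.99 (SE 0.482; limma adjusted p = 1.56e-07). The adjacent clec-222 on chromosome V (clec-222 at 11271351 to 11272467 and clec-223 at 11273148 to 11278161, both on the plus strand) had 557 reads in mutants and 2 in wild type, a ratio of 176-fold (95% counting interval 48.6 to 1461). Each was highest in mutant replicate 1 and lowest in mutant replicate 4.

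clec-44 had 280 reads in mutants, at 3.08, 3.55, 1.98 and 2.3 CPM, and none in wild type, which makes it at least 59.1-fold higher against a floor of 3 reads over the 4 wild-type libraries (0.046 CPM). clec-190 had 304 reads in mutants and 1 in wild type, a ratio of 193-fold with a counting interval of 34.3 to 7633. clec-97 was at 10.3, 9.56, 14.4 and 12.0 CPM in mutants and at 0.188, 0.0522, 0.323 and 0 CPM in wild type. clec-147 was at 10.4 ± 0.752 CPM in mutants and 0.184 ± 0.0704 CPM in wild type (SD, n = 4 each), a log2 fold change of 5.66 (SE 0.241; limma adjusted p = 1.65e-08). Among the 35 upregulated members, 3 more had 2 or 3 wild-type reads, clec-35 (189 reads in mutants), clec-75 (189) and clec-167 (150), with ratios of 39.9, 39.9 and 47.5 and counting intervals of 13.5 to 195, 13.5 to 195 and 12.9 to 396. The level of wild-type replicate 4 was the lowest of its strain in 19 of the 35 (54.3%), as in 50.8% of all upregulated genes. All 35 kept an adjusted p under 0.05 without any single library, and 34 did so in all 3 other scalings, the exception being clec-198 after quantile normalization (1.12, adjusted p = 0.0876).

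The 3 members listed for the germline, clec-87, clec-88 and clec-91, were all upregulated. clec-87 was at 298, 309, 472 and 448 CPM in mutants and at 9.71, 4.75, 6.33 and 2.59 CPM in wild type, a log2 fold change of 6.15 (SE 0.347; limma adjusted p = 9.96e-08). clec-88 was at 89.8, 103, 165 and 147 CPM in mutants and at 2.76, 2.4, 3.17 and 1.29 CPM in wild type, a log2 fold change of 5.72 (SE 0.282; limma adjusted p = 4.15e-08). clec-91 was at 56.8, 63.5, 101 and 91.5 CPM in mutants and at 1.69, 1.25, 2.00 and 0.749 CPM in wild type, a log2 fold change of 5.80 (SE 0.297; limma adjusted p = 5.23e-08). All 3 were highest in mutant replicates 3 and 4 and lowest in wild-type replicate 4. Together they summed to 445, 476, 738 and 686 CPM in mutants and to 14.2, 8.41, 11.5 and 4.63 CPM in wild type. The summed oocyte and embryo markers were likewise highest in mutant replicates 3 and 4, at 4229, 3739, 4740 and 5013 CPM, and lowest in wild-type replicate 4, at 185, 102, 113 and 45.4 CPM. The summed sperm markers were at 914, 911, 905 and 1029 CPM in mutants and at 110, 70.2, 98.0 and 39.2 CPM in wild type. The summed germline markers were instead highest in mutant replicates 1 and 2, at 1914, 1720, 1617 and 1696 CPM. In wild type they were at 543, 443, 433 and 264 CPM. The part of these marker levels in the change of the 3 genes was not tested. clec-87 shares 138 exonic bases with iars-2 on the opposite strand.

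A different pattern within the mutants was seen in clec-223, clec-42, clec-75 and clec-165, which were each higher in mutant replicates 1 and 2 than in 3 and 4. For clec-165 these levels were 5.89, 5.54, 2.65 and 3.17 CPM in mutants, against 0.439, 0.313, 0.581 and 0.341 CPM in wild type, and for clec-75 they were 2.81, 2.24, 1.19 and 1.22 CPM in mutants, against 0.125, 0, 0.0646 and 0 CPM in wild type. In contrast, clec-73, clec-79 and clec-123, with log2 fold changes of 3.28, 3.35 and 3.32, varied little among mutants (61.2 to 68.5, 46.4 to 52.3 and 47.5 to 55.7 CPM) and were lowest in wild-type replicate 4. These genes were picked out after their values were seen. Summed pharyngeal and yolk protein markers were also higher in mutant replicates 1 and 2. The 4 pharyngeal markers summed to 164, 153, 53.6 and 66.9 CPM in mutants and 72.9, 80.1, 64.9 and 41.9 CPM in wild type. Among them pha-4 did not follow this pattern, at 17.1, 14.2, 11.7 and 14.5 CPM in mutants. The 6 vitellogenins summed to 9110, 8208, 6383 and 6474 CPM in mutants and 3310, 2071, 3394 and 1691 CPM in wild type. The part of these markers in the pattern was not tested.

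The positions of the clec genes in the genome were examined next, since many lie side by side. Of the 110 members, 7 are on chromosome I, 26 on II, 10 on III, 33 on IV, 32 on V and 2 on X. On chromosome III 5 of the 10 were upregulated, while chromosome II had 11 upregulated and 4 downregulated, IV had 8 and 9, and V had 8 and 11. Over all genes 20.6% were upregulated and 7.48% downregulated, so the upregulated shares on IV and V were near that of the table. Taking genes on 1 chromosome that lie within 50 kb of the next, with at least 3 members, gave 9 genome groups holding 42 members. In 6 groups every member that passed the test went in 1 direction, and 3 groups held members in both directions. No such share was computed for neighbouring genes of the whole table, so these counts are a description only.

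The group on chromosome III (4628465 to 4685533) held clec-151 to clec-155, and all 5 were upregulated, with log2 fold changes between 2.34 (clec-154) and 3.79 (clec-153). clec-151, the most abundant of them, was at 29.5, 30.4, 29.2 and 30.9 CPM in mutants and at 3.76, 2.98, 3.75 and 1.84 CPM in wild type. All 3 members of a group on chromosome V (16846811 to 16854056), clec-26, clec-35 and clec-36, were upregulated as well, at 2.76, 5.14 and 3.60. Groups that went the other way were clec-62, clec-63, clec-65 and clec-66 on chromosome II (12893062 to 12906644), where 3 were lower and clec-62 did not pass, clec-80, clec-82, clec-83, clec-84 and clec-85 on chromosome IV (2823746 to 2855456), where 4 were lower and clec-82 did not pass, clec-54, clec-56, clec-57 and clec-227 on chromosome V (14469231 to 14479003), and clec-49, clec-50 and clec-258 on chromosome V (19748961 to 19789385). Within these the size of the change varied widely, from -0.40 for clec-56 to -3.39 for clec-227 in the third of them. clec-56 itself, at 28.4, 26.9, 19.6 and 21.3 CPM in mutants and 26.1, 28.7, 41.4 and 31.5 CPM in wild type, overlapped and did not pass without any of mutant replicates 3 and 4 or wild-type replicates 3 and 4 (adjusted p 0.0575 to 0.111), and was 0.19 with library totals.

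The mixed groups showed that neighbours a few kilobases apart could move in opposite directions. On chromosome IV (1245171 to 1274425), clec-165, clec-166 and clec-167 on the minus strand were higher in mutants, with log2 fold changes of 3.22, 1.61 and 4.77, and clec-169 and clec-170 on the plus strand were lower, at -2.04 and -1.89. clec-166 was at 23.0, 25.7, 18.9 and 20.1 CPM in mutants and at 8.4, 6.58, 6.4 and 7.15 CPM in wild type, and clec-170 at 27.2, 22.8, 21.5 and 20.3 CPM in mutants and 85.4, 86, 80.9 and 84.7 CPM in wild type. The exons of clec-165 overlap those of F38A1.9 by 120 bases on the same strand. The 10 genes of the largest group, clec-67 to clec-79 on chromosome IV (3922165 to 4014235), comprised 5 that were higher, 3 that were lower and 2 that did not pass, running from -1.54 for clec-72 to 4.86 for clec-75. In the last mixed group, on chromosome II (10468202 to 10490537), clec-60 and clec-61 were upregulated and clec-143 was lower (-0.80, limma adjusted p = 0.000305), though clec-143 was -0.21 with an adjusted p of 0.194 with library totals and overlaps tnc-2 by 157 exonic bases on the opposite strand.

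**Figure D5:**
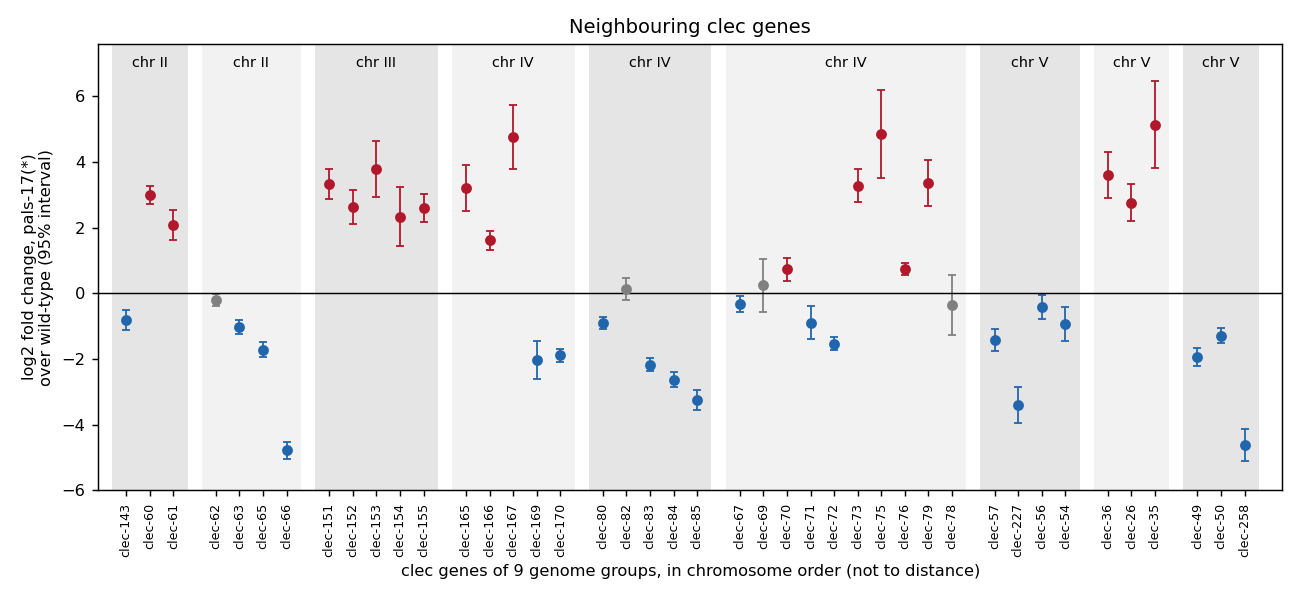
log2 fold change, pals-17(*) over wild-type, with 95% interval for the 42 clec genes of 9 genome groups (shaded, with the chromosome named at the top), in chromosome order within each group and not to distance; red marks genes higher in mutants, blue genes lower and grey genes that did not pass. All 5 genes of the chromosome III group lie above 2, and the first group of chromosome IV splits into 3 genes above 0 and 2 below.

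In 9 members the strains could not be separated by the test, clec-8, clec-43, clec-62, clec-69, clec-78, clec-82, clec-86, clec-146 and clec-184. These are not shown to be even between strains. In clec-43 every mutant library (1.19 to 1.48 CPM) lay below every wild-type library (1.51 to 2.76 CPM), and its log2 fold change of -0.51 (limma adjusted p = 0.0512) passed with voom weights, no trend, 0.1 or 1 CPM added, median centring, quantile normalization and without wild-type replicate 2 or 4 (adjusted p 8.7e-06 to 0.0498), but was 0.081 (adjusted p = 0.742) with library totals. The widest intervals were those of clec-78 (log2 fold change -0.34, 95% interval -1.26 to 0.57), clec-86 (-0.71, -1.53 to 0.10) and clec-69 (0.24, -0.57 to 1.04). clec-86 was at 1.03, 1.12, 2.01 and 1.30 CPM in mutants and at 1.5, 1.31, 2.91 and 3.81 CPM in wild type, a pair of wild-type libraries lying within the mutant range. clec-62, the most abundant of the 9, was at 97.3, 90.6, 84.9 and 86.3 CPM in mutants and at 90.9, 102, 118 and 102 CPM in wild type. Its change of -0.19 (limma adjusted p = 0.051) became 0.40 with library totals and -0.47 with median centring, each past the threshold.

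Other gene families of innate defence were counted for comparison, with the same test. Over all genes 41.2% were lower, 7.48% downregulated, 42.5% higher and 20.6% upregulated. The shares of galectins and saposin-like genes that were lower or higher lay near these. Of 12 galectins, another lectin family of the worm, 6 were lower in mutants, 4 were higher and 2 did not pass, with a median log2 fold change of -0.34 that was 0.25 with library totals. lec-6 and lec-10 were downregulated (log2 fold changes -2.31 and -2.17), but neither passed the limit of -2 with library totals or quantile normalization. Averaged over both strains the most abundant galectins were lec-1, at 664 ± 50.7 CPM in mutants and 978 ± 25.9 CPM in wild type, and lec-10, at 256 ± 15.3 CPM and 1152 ± 19.7 CPM (SD, n = 4 each). Lysozymes, which cut bacterial cell walls, were lower in 9 of 10 genes, lys-3 being the exception, and in 7 with library totals (median -2.46 with the deposited scaling). Among them were ilys-5 at 11.6 ± 2.58 CPM in mutants and 1160 ± 180 CPM in wild type and lys-4 at 89.8 ± 10.7 CPM and 1248 ± 170 CPM. lys-4 is also counted among the intestinal markers above. Saposin-like genes, whose products can lyse membranes, were split, with 7 of 16 lower, 6 higher and a median of -0.24 that was 0.36 with library totals. The most abundant were spp-14 (log2 fold change -0.75) and spp-5 (-1.17).

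Listed genes of the antibacterial p38 pathway that were found by name and IPR genes went mostly in opposite directions. Of 12 listed names of p38 targets and effectors 6 matched a gene name of the table. All 6 were downregulated under each of the 4 scalings (median log2 fold change -5.45). Names were matched as spelled. Whether a name without a match belongs to a gene that the table holds under another name, or to a gene already counted, was not checked. The PMK-1 targets clec-85 and clec-67, given above at -3.26 and -0.32, are not among the 6. clec-67 was not downregulated, so the result for the 6 does not extend to every p38 target. dod-24 was at 0.339 ± 0.172 CPM in mutants and 539 ± 105 CPM in wild type, and C17H12.8 at 33.4 ± 1.93 CPM and 289 ± 25.9 CPM (SD, n = 4 each). Of 8 IPR genes 7 were higher and 6 of them upregulated (median 6.05), with F26F2.1 at 143 ± 25.4 CPM in mutants and 1.91 ± 0.333 CPM in wild type and skr-3, the exception, at 156 ± 12.1 CPM and 146 ± 8.06 CPM. All 8 were higher with library totals and with quantile normalization, and with median centring 7 were higher and 1 was lower.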

How the data were processed

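RNA from whole animals was prepared with a stranded mRNA kit and sequenced as paired ends, and by the study's methods reads were mapped to the WS235 genome with Rsubread. The submitters' processing notes name featureCounts and limma, and genes under 1 CPM were filtered out by the authors. The annotation, the strand setting and the scaling method are not given in the sources used here. The deposited table holds log2 values per gene and library that the authors made from read counts and scaled library sizes. From these, whole reads were recovered (100% of values within 0.01 of a whole number), and CPM is reads over the scaled size. An entry without a gene name (0.00275 to 0.00568% of reads) was left out.

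The log2 values of all 14541 named genes were fitted with limma 3.58.1 in R 4.3.3 (lmFit, eBayes with trend, 2-sided, pals-17(*) minus wild-type), with Benjamini-Hochberg adjustment over all genes, and a change was called at an adjusted p under 0.05. Fitted fold changes of genes with few reads depend on the small count added before the log. Members with 3 reads or fewer in a strain were given a 95% exact counting interval of the read ratio (binomial), which covers counting error only. The fit was tested on simulated data with known fold changes. Genes were named by rule, as the 10 largest increases and decreases among genes whose libraries did not overlap and that reached 1 CPM, the 6 highest in each strain, the role lists, the genes that did not pass and the extremes of genome groups. Outside the rule, clec-36, clec-54, clec-57, clec-73, clec-79, clec-80, clec-123, clec-151, clec-152, clec-155, clec-165, clec-166, clec-170 and clec-198 were named after their values were seen, as neighbours in genome groups or as examples. The members and lists were chosen with earlier results of these data known, and the lists are short ones from general knowledge. Positions and exon lengths came from WBcel235, Ensembl release 115, in which 14531 IDs were found, and 25 members share exonic bases with another gene, 9 of them on the same strand. Alternatives were the replicate number as a block, voom weights on recovered reads, no trend, robust moderation, 0.1 or 1 CPM added, filters of 1 CPM in 4 libraries or a mean of 5 CPM, library totals, median centring, quantile normalization and leaving out each library.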

Additional observations from a re-analysis of the deposited data

Results flagged for a closer look

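In each strain's 4 libraries, a gene was picked out where the gap between the most extreme library and the next, divided by the range of the 4, was above Dixon's critical value at the 95% level. Of 220 such groups 8 passed, and chance alone flags about 1 group in 20. In pals-17(*) mutants, clec-1 was low in replicate 1 (144 CPM against 174 to 179 CPM in the others, ratio 0.857), clec-36 was low in replicate 3 (2.80 against 3.21 to 3.29 CPM, ratio 0.835) and clec-51 was low in replicate 4 (22.1 against 23.9 to 24 CPM, ratio 0.932). Also in mutants, replicate 2 was high for clec-142 (4.85 against 3.69 to 3.84 CPM, ratio 0.875) and for clec-206 (0.181 against 0.0373 to 0.0446 CPM, ratio 0.949). The mutant levels of clec-206 rest on 8 reads over the 4 libraries. In wild type, clec-260 was high in replicate 1 (0.752 against 0.261 to 0.323 CPM, ratio 0.874). The ratio was 1 for clec-35 in wild-type replicate 2 (0.157 CPM) and for clec-190 in wild-type replicate 1 (0.0627 CPM), in both cases because the other 3 libraries had 0 reads.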

How the results depend on the processing

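The scaling and the treatment of low values moved the counts. Scaling by library totals turned the family median to 0.34, with median centring it was -0.54, with quantile normalization -0.45, and among members with a mean of 5 CPM -1.03. Quantile normalization gave 24 upregulated against 31 downregulated members where the deposited scaling gave 35 against 27, library totals gave 38 against 21 and median centring 32 against 31. Over all genes these counts were 1922 against 1600 with quantile normalization, 2995 against 1087, 3649 against 536 and 2704 against 1434. With 1 CPM added before the log, 18 were upregulated and 20 downregulated, and 1821 and 810 of all genes. The filter at a mean of 5 CPM kept 63 members, of which 16 were upregulated, 17 downregulated and 23 higher. Leaving out each library gave 33 to 36 upregulated, 24 to 28 downregulated, 48 to 49 higher and 49 to 53 lower members and a median of -0.29 to -0.13. Of the 49 higher members 38 kept direction and an adjusted p under 0.05 in all 3 other scalings, as did 43 of the 52 lower. The same held for 34 of the 35 upregulated and 27 of the 27 downregulated members. Not all of these stayed past the limit on fold. With library totals 21 of the 27 were still downregulated, and with quantile normalization 24 of the 35 were still upregulated.

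The sign turned in 20 members under some alternative, among them clec-145, clec-7 and clec-12 with changes of 1.70, 1.15 and 1.01. With library totals these were clec-41 (0.23), clec-43 (0.081), clec-56 (0.19), clec-62 (0.40), clec-67 (0.28), clec-78 (0.25), clec-90 (0.18) and clec-146 (0.52). With median centring they were clec-1 (-0.011), clec-8 (-0.21), clec-69 (-0.038) and clec-82 (-0.14). With quantile normalization they were clec-7 (-0.20), clec-8 (-0.91), clec-12 (-0.29), clec-62 (0.16), clec-69 (-0.74), clec-82 (-0.094), clec-126 (-0.76), clec-145 (-0.17), clec-149 (-0.10), clec-178 (-0.20), clec-184 (-0.82) and clec-264 (-0.36). Leaving out each library, clec-8 ranged over -0.11 to 0.25 and clec-69 over -0.094 to 0.48 (both below 0 without wild-type replicate 1), and clec-146 over -0.15 to 0.0066 (above 0 without mutant replicate 1). The cause was not tested.

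With the replicate number as a block, 35 members were upregulated, 27 downregulated, 49 higher and 51 lower, clec-86 passed (-0.71, adjusted p = 0.0383), and clec-41 and clec-56 did not. Libraries with the same number did not deviate together (correlations 0.0731, 0.0621, 0.0076 and -0.0167), so the numbers were not taken as pairs. clec-86 also passed without mutant replicate 3 or wild-type replicate 2 and with median centring or quantile normalization. At these depths levels under about 0.1 CPM rest on 1 to 3 reads.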

Other observations

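Further marker lists were counted with the same test. Of 7 neuronal genes 5 were lower in mutants by limma (median log2 fold change -0.33), but 5 were higher with library totals (median 0.27). Of 6 vitellogenins, yolk proteins made by the adult intestine, 5 were higher in mutants (median 1.18), and the list summed to 6383 to 9110 CPM in mutants and 1691 to 3394 CPM in wild type. Of 4 pharyngeal genes 3 were higher (median 1.17), each overlapping between strains, and losing the call with median centring. The other, pha-4, was lower in mutants with no overlap (log2 fold change -1.04, limma adjusted p = 1.74e-05). Of 7 germline genes 6 were upregulated (median 2.94), summing to 1617 to 1914 CPM in mutants and 264 to 543 CPM in wild type.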
